A study of Drosophila melanogaster with 2 samples.

Results

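The nuclear genes for subunits of respiratory complex III, complex IV and the ATP synthase were taken from the Ensembl annotation as all protein-coding genes whose symbol starts with UQCR, COX or ATPsyn. This rule gave 40 genes of the 13945 protein-coding genes on the chromosome arms, with 9 for complex III, 16 for complex IV and 15 for the ATP synthase. The rule uses the symbol alone. The measurement was ChIP-seq of woc, a zinc finger protein, in whole Drosophila melanogaster larvae of the third instar that had left the food to wander. The larvae came from 1 transgenic line that stably carries woc with GFP fused to its C terminus, and an anti-GFP antibody recovered the fusion with its DNA. The 2 libraries, biological replicates 1 and 3, were made from separate biosamples of pooled males and females, and there was no second genotype, treatment or stage. Age in days is unknown, and a whole larva mixes all tissues, so a promoter occupied in few cells gives little signal.

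Complex III passes electrons from ubiquinol to cytochrome c, complex IV passes them on to oxygen, and the proton gradient that both help to build drives the ATP synthase in the inner mitochondrial membrane. Most of their subunits are encoded in the nucleus. In Drosophila many of these genes have a duplicate whose symbol carries an added L, and such duplicates are known mostly for expression in the testis. Wandering larvae are at the end of feeding and hold both growing imaginal tissue and muscle, which depends on oxidative phosphorylation.

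The woc-eGFP summit lay at the promoter of 8 of the 40 genes. These were UQCR-C2, UQCR-11 and UQCR-14 of complex III, COX8, COX7B and COX5A of complex IV, and ATPsynCF6 and ATPsynbeta of the ATP synthase. A gene is called bound here when a summit of the authors' optimal list lies within 500 bp of a transcription start site (TSS) of one of its protein-coding transcripts. The 8 bound genes are 20% of the 40 (exact 95% binomial interval 9.05% to 35.6%, covering counting error over genes only), against 21.9% of all protein-coding genes, so the share is near the background. The sequences of these 8 promoters are given here because every summit but that of COX5A lies inside them. Each runs 5′ to 3′ in the direction of the gene on dm6 and covers the 150 bp before the start site closest to the summit and the first 50 bp transcribed from it. Capitals mark matches to the core promoter motifs that are described with the motif counts, on either strand.
UQCR-C2, chr3L:16584123-16584322, plus strand: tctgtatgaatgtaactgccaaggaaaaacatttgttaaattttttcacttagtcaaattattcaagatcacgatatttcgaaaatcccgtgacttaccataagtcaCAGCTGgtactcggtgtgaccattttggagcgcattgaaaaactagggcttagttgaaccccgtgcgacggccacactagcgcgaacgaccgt
UQCR-11, chr3L:25120559-25120758, plus strand: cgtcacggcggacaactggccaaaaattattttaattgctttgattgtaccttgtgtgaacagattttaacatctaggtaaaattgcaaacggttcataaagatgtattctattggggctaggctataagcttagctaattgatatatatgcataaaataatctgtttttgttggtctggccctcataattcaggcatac
UQCR-14, chrX:16286138-16286337, plus strand: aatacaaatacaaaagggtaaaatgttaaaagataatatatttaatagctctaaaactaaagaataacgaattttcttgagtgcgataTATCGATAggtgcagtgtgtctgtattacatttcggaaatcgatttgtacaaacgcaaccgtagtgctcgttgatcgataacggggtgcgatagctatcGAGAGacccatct
COX8, chr3L:21539398-21539597, minus strand: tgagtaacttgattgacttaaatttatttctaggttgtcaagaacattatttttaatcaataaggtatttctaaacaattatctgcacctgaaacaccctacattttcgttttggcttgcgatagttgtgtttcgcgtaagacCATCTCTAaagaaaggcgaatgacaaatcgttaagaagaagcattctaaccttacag
COX7B, chr3L:17425327-17425526, plus strand: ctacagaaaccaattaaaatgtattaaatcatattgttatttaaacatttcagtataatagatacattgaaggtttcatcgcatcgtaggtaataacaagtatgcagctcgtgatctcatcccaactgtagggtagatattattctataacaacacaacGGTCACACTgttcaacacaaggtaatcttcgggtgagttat
COX5A, chr3R:11819209-11819408, plus strand: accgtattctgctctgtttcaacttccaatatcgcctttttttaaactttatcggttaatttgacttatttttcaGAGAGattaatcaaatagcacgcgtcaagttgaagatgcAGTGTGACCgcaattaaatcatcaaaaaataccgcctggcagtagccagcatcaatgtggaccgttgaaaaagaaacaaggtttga
ATPsynCF6, chr3R:23356015-23356214, minus strand: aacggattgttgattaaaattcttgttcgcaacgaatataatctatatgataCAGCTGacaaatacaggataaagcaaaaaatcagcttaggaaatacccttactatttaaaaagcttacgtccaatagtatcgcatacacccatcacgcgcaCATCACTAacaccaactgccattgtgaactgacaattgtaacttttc
ATPsynbeta, chr4:1031714-1031913, plus strand: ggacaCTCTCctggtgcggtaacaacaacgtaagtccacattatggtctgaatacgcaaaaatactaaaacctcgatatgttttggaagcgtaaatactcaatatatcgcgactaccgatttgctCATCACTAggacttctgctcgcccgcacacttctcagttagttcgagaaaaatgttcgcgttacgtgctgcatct

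Complex III had 3 bound genes of 9. UQCR-C2 encodes a core protein of the complex and had the highest signal of all 40 genes. Its optimal peak reached 420.4 and was centred at 3L:16584255, 18 bp upstream of a TSS. UQCR-C2 had a signal of 147 in replicate 1 and 277 in replicate 3, ranks 808 and 984 among the 29999 peaks of each list. UQCR-11, a small subunit, had an optimal signal of 198, with 72.3 in replicate 1 and 126 in replicate 3. Its summit at 3L:25120660 lay 49 bp upstream of its TSS. UQCR-14, another small subunit, had the lowest signal of the 8 bound genes at 133, with 53.3 in replicate 1 and 75.1 in replicate 3. Its summit at X:16286237 lay 51 bp upstream of its only TSS. UQCR-14 was no longer called when the list was limited to the 3318 optimal peaks of highest signal. No other protein-coding gene had a TSS within 500 bp of these 3 summits.

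Among the complex III genes that were not bound, UQCR-Q alone had a summit in the relaxed pooled list, with a signal of 33.5 at 123 bp downstream of a TSS. That relaxed list holds background as well as peaks. UQCR-C1, which encodes the other core protein, and UQCR-6.4, UQCR-6.4L, UQCR-11L and UQCR-14L had no summit within 500 bp in any of the 4 lists used. The nearest optimal summit lay 4350 bp from UQCR-C1 and 4186 bp from UQCR-6.4. Of the core protein genes, UQCR-C2 had the highest value of the complex and UQCR-C1 none.

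Complex IV had 3 bound genes of 16, and their signals lay close together. COX8 encodes a small membrane subunit and had an optimal signal of 406, with the summit at 3L:21539523, 76 bp upstream of its TSS. COX8 had a signal of 189 in replicate 1 and 234 in replicate 3. COX7B, another small subunit gene, had an optimal signal of 394, with 171 in replicate 1 and 221 in replicate 3. Its summit at 3L:17425361 lay 116 bp upstream of its TSS. COX8 and COX7B took ranks 452 and 573 in the replicate 1 list, and both stood lower in the replicate 3 list at ranks 1371 and 1507. COX5A, whose protein contacts the matrix side of the complex, had an optimal signal of 353, with 126 in replicate 1 and 237 in replicate 3.

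Unlike the other 7 bound genes, COX5A had its summit downstream of its nearest TSS, by 102 bp. The summit at 3R:11819461 lay nearer a TSS of glo, at 41 bp, and COX5A was not called when a summit counted only for the gene with the nearest TSS. Relaxed pooled summits were found at 5 further complex IV genes. COX5B, a subunit gene, had 92.5 in the pooled list, with 35.1 in replicate 1 and 49.1 in replicate 3, and this summit lay 20 bp from a TSS of its partner IFT52. COX7C had 69.5, with 41.5 in replicate 1 and 58.9 in replicate 3. Its pooled summit lay 283 bp from a TSS of COX7C but 17 bp from one of oys, and the replicate 1 summit lay 428 bp from the pooled one. COX7AL2 had 86.4, COX5BL had 34.4 and COX4L had 26.7. The subunit genes COX4, COX6B and COX7A had no summit in any list, and the same was true of COX6AL, COX6AL2, COX6CL, COX7AL and COX7CL. In the 6636 highest peaks of the replicate 1 library alone, COX7C and COX7AL2 were added and complex IV had 5 bound genes; with replicate 3 alone it had 3.

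The ATP synthase had 2 bound genes of 15. ATPsynbeta encodes the catalytic subunit of the rotary head, and had an optimal signal of 202. Its summit lay on chromosome 4, at 4:1031845, 19 bp upstream of a TSS. Its signal was 76.3 in replicate 1 and 129.7 in replicate 3. ATPsynCF6, the coupling factor of the stalk, had an optimal signal of 207. The summit lay at 3R:23356089, 25 bp upstream of a TSS. Its signal was 73.5 in replicate 1 and 131 in replicate 3, so the values of the 2 genes were near one another in every list.

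Relaxed pooled summits stood at ATPsynE with 71.0, ATPsyndelta with 55.6, ATPsynD with 52.4 and ATPsynepsilonL with 22.3. ATPsynE and ATPsynD encode subunits of the membrane part and the stalk, and ATPsyndelta a subunit of the central stalk. ATPsynC, the gene of the rotating membrane ring, had no pooled summit but a signal of 70.4 in the replicate 3 list, at rank 6450, which placed it among the 6636 highest peaks of that library. The replicate 1 list had no summit within 500 bp of ATPsynC. ATPsynB, ATPsynF, ATPsynG, ATPsynO and ATPsyngamma had no summit in any list, nor did ATPsynCF6L, ATPsynGL and ATPsynbetaL.

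**Figure D1:**
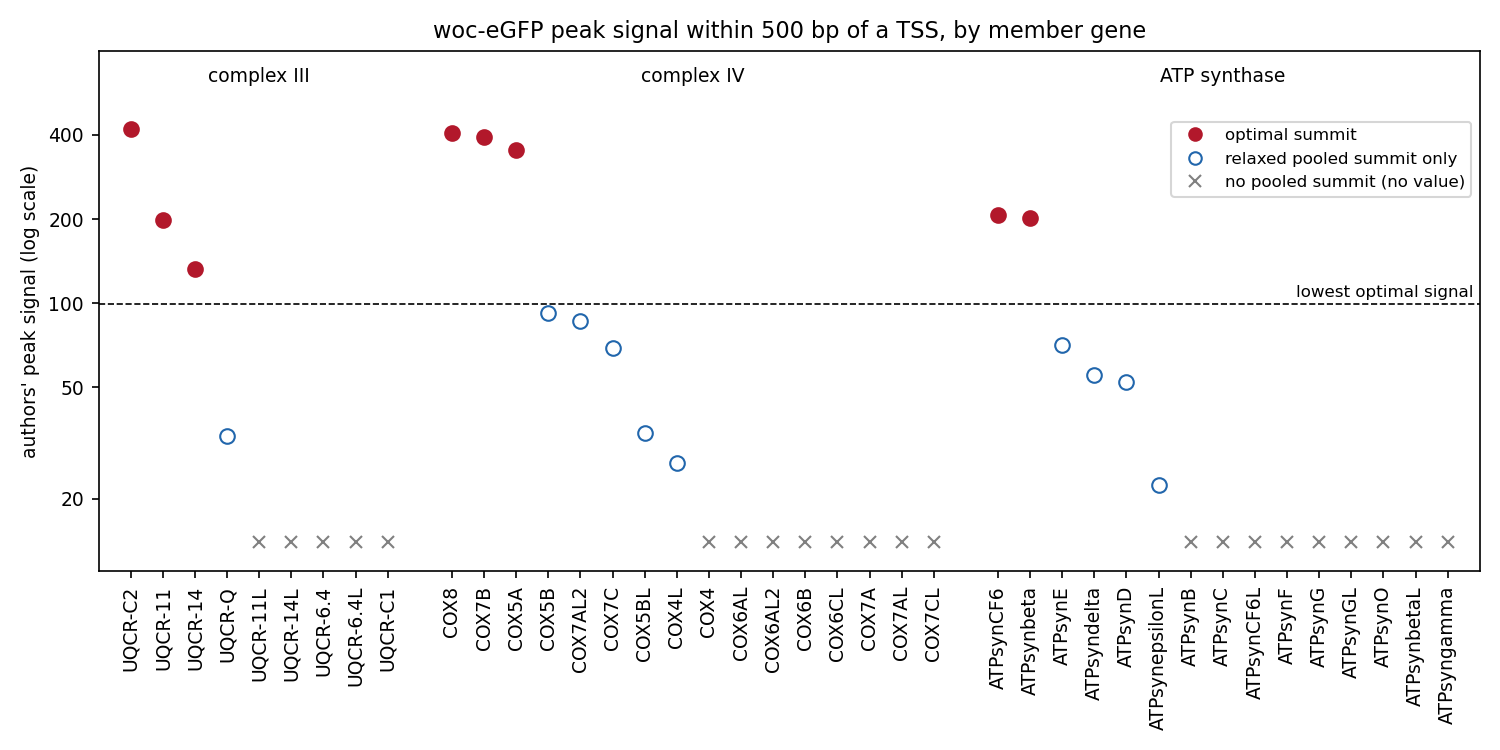
Signal of the highest summit within 500 bp of a TSS for each of the 40 genes, on a log axis, by complex. Filled points are optimal summits, open points are summits of the relaxed pooled list only, and crosses at the foot of the plot mark genes with no pooled summit and hence no value. The dashed line is the lowest optimal signal, 99.6; the 8 bound genes lie between 133 and 420.4.

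In all, 18 of the 40 genes (45%) had a summit in the optimal or the relaxed pooled list, against 38.5% of all protein-coding genes. The lowest bound gene was UQCR-14 at 133 and the highest unbound one was COX5B at 92.5, on either side of the lowest optimal signal of 99.6. This split is set by the call, because the optimal list holds all 6636 pooled peaks at or above that signal. The median optimal signal of the 8 bound genes was 280.1, against 238 for all 3058 bound genes. UQCR-C2 had a signal at or above that of 78.5% of all bound genes and UQCR-14 at or above that of 15.9%. The authors' −log10 q was at the list's ceiling of 3.94 for 7 of the 8 genes and 3.51 for UQCR-14. The 32 unbound genes lay a median of 7319 bp from the nearest optimal summit, with a range of 571 to 127380 bp, against a median of 11129 bp for all unbound genes.

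Summits of the bound genes lay close to the TSS. The distance had a median of 50 bp over the 8 genes, against 141 bp for all bound genes, and the summit was upstream in 7 of 8, against 2720 of 3058. No test was made of these differences.

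A divergent partner, an opposite-strand protein-coding gene that points away with a TSS within 1000 bp, was annotated for 20 of the 40 genes (50%), against 36.2% of all genes. Of these 20 genes 5 were bound (25%), against 36.3% of all genes with a divergent partner. Of the 20 without one, 3 were bound (15%), against 13.8% of all such genes. Both groups include duplicates with an added L, none of them bound. Leaving these out, 5 of 17 genes with a partner (29.4%) and 3 of 8 without one (37.5%) were bound. The 3 without a partner were the complex III genes, and the 5 with one were those of complex IV and the ATP synthase. In each of the 5 pairs the 2 genes shared the summit of highest signal. COX8 shared it with VhaM9.7-b, a subunit gene of the vacuolar proton pump, whose TSS lay 339 bp away. COX7B shared it with Sec3, a gene of the exocyst, at 144 bp, and ATPsynCF6 with Sec13, a coat protein gene of vesicle transport, at 189 bp. ATPsynbeta shared its summit with CG11076 at 88 bp, and COX5A with glo, an RNA-binding protein gene. At 4 of these 5 summits the respiratory gene had the nearer TSS, and at COX5A the partner did. Of all 3058 bound genes, 1601 had a TSS of another gene within 500 bp of the summit, and 2285 had the nearest TSS. COX8 and ATPsynbeta each had 2 optimal summits within 500 bp of a TSS, and only the one of higher signal is described.

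In the remaining 15 divergent pairs neither gene was bound, so no pair had only 1 bound gene. Over all 5052 genes with a partner, both genes were bound for 1624 and neither for 3000, while 210 were bound without their nearest partner and 218 had a bound partner only. ATPsynD, for example, pairs with mRpL55, a mitochondrial ribosomal protein gene, UQCR-C1 with the cyclin gene CycC at 26 bp, and COX7A with Arl2 at 57 bp, and none of these 6 genes was bound.

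**Figure D2:**
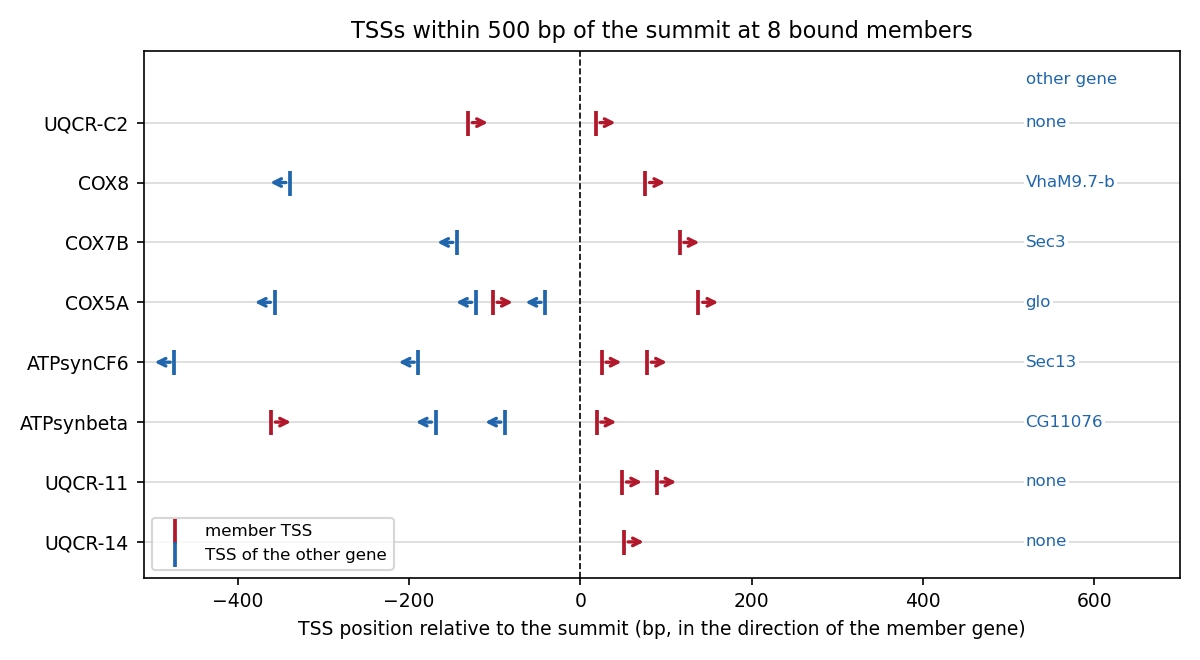
TSSs within 500 bp of the summit at the 8 bound genes, in bp from the summit (dashed line) in the direction of each gene; red marks are TSSs of the respiratory gene, blue marks those of the other gene named at the right, and arrows give the direction of transcription. For 7 genes the nearest own TSS lies 18 to 116 bp downstream of the summit, and for COX5A it lies 102 bp upstream of it.

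The libraries were compared at the same promoters. The signal in each library is that of its highest peak overlapping the optimal peak. At all 8 bound genes it was higher in the replicate 3 list than in the replicate 1 list, by 1.23-fold at COX8 to 1.89-fold at UQCR-C2, with a median of 1.72-fold, close to the median of 1.69-fold over the 2931 bound genes found in both lists. The lists state no common scale, so these ratios describe the lists. The summits of the libraries lay 1 to 62 bp from the pooled summit. All 8 genes stood among the 6636 highest peaks of both libraries, against 82.1% of all bound genes. This share is tied to how the genes were called, since the optimal list was made from the same libraries.

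**Figure D3:**
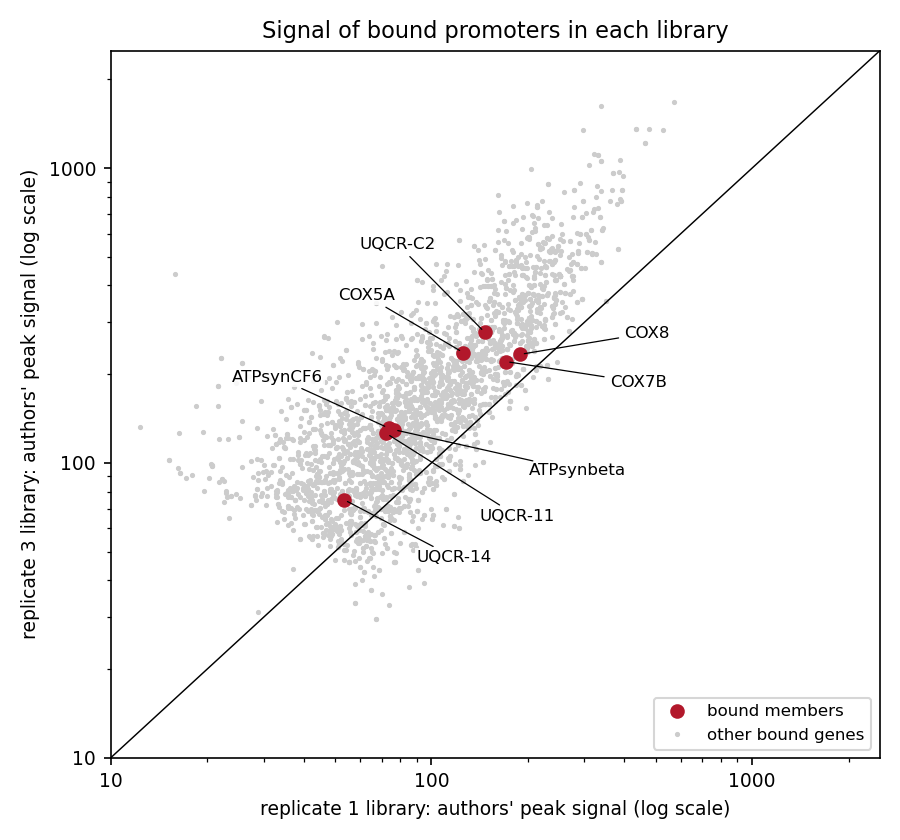
Signal in the replicate 1 library (horizontal) and the replicate 3 library (vertical) at the promoters of bound genes, on log axes; red points are the 8 bound genes for complex III, complex IV and the ATP synthase, grey points the other bound genes found in both lists, and the line marks equal signal. The 8 points lie above the line, with replicate 1 signal from 53.3 at UQCR-14 to 189 at COX8 and replicate 3 signal from 75.1 at UQCR-14 to 277 at UQCR-C2.

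The duplicates with an added L were counted apart. In 11 cases the symbol is that of another of the 40 genes with L and an optional digit, and none of the 11 was bound, which allows a share of up to 27.3% by the limit of 3 counts. COX6AL, COX6AL2, COX6CL and ATPsynepsilonL are further genes of this kind whose partner carries another symbol (levy, cype and sun). With these added after the annotation was read, 0 of 15 were bound, which allows up to 20%, against 8 of the 25 genes without an L (32%, exact interval 14.9% to 53.5%) and 21.9% of all genes. Of the 15, 12 had no divergent partner, and 13.8% of all genes without one were bound, so a count of 0 among so few genes is no result about duplicates. A divergent partner was annotated for 3 of the 15, against 17 of the 25. COX7AL2 was the nearest to a call: an optimal summit of signal 375 lay within its gene body, 571 bp from its TSS. It was called within 1000 bp, by overlap of peak intervals and with replicate 1 alone, each giving 1 of 11.

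For 4 of the 11 duplicates, and for 7 of the 15, the gene of origin was bound. The 4 are described here. UQCR-14L encodes a protein with 85.6% of aligned residues identical to UQCR-14 and has 1 exon, against 3 for UQCR-14. UQCR-11L shares 78.8% with UQCR-11, ATPsynbetaL 71% with ATPsynbeta and ATPsynCF6L 44.4% with ATPsynCF6. Each of these 4 duplicates had no summit in any list, while the signal was 133 at UQCR-14, 198 at UQCR-11, 202 at ATPsynbeta and 207 at ATPsynCF6. Of all 13945 protein-coding genes, 8576 had no optimal or pooled summit, so this count is no result about duplicates. Over the 11 pairs identity ran from 32.6% to 85.6%, and 9 of the duplicates had fewer exons than their origin in the transcript with the most. Testis is a small part of a whole larva, so the calls do not show whether woc-eGFP is absent from these promoters in germ cells. The promoters of the ATP synthase duplicates ATPsynCF6L and ATPsynbetaL are shown for comparison with those of the bound genes of origin, in the same window, placed on the outermost upstream TSS; they hold no motif match and so no capitals.
ATPsynCF6L, chr3L:5012084-5012283, minus strand: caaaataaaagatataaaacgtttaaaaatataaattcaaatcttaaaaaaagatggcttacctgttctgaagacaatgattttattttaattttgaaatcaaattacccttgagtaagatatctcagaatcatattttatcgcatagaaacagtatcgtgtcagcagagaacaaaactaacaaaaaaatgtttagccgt
ATPsynbetaL, chr3L:16097684-16097883, plus strand: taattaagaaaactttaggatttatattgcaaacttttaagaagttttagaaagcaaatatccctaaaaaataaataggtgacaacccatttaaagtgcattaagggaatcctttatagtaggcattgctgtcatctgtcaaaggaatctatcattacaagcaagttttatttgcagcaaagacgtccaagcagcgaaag

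Short motifs were searched on both strands in a 200 bp window of every gene. The window was placed on the TSS nearest the summit in bound genes and on the outermost upstream TSS in all others. Shares of bound and other genes therefore do not rest on 1 placement. The core of Ohler motif 1, GGTCACACT, which the factor M1BP binds, was present in 6 of the 40 promoters (15%), against 5.34% of all promoters. These were COX5A and COX7B among the bound genes, and ATPsynD, COX4, COX5B and UQCR-6.4. The core of Ohler motif 7, CATCNCTA, was present in 5 (12.5%), against 5.33%, and these were ATPsynCF6, ATPsynbeta and COX8 among the bound genes, with ATPsynF and COX6B. In ATPsynbeta it ended 18 bp upstream of the TSS, in COX8 it ran across the TSS, and in ATPsynCF6 it began 4 bp into the transcript. Among all bound genes, 6.61% held the core of Ohler motif 1 and 10.3% that of Ohler motif 7, against 2 and 3 of the 8.

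The DNA replication-related element TATCGATA, the site of the factor DREF, was found in 3 promoters (7.5%), against 8.01%: UQCR-14, COX4 and COX7A. The E-box CAGCTG was found in 7 (17.5%), against 14.3%, with UQCR-C2 and ATPsynCF6 bound among them. The short GAGAG of the GAGA factor was found in 9 (22.5%), against 23.2%, with ATPsynbeta, COX5A and UQCR-14 bound among them. A pattern for the nuclear respiratory gene element, NTTANNTAA with a purine, a pyrimidine and a purine at its Ns, was found in none of the 40 windows and in 1.69% of all. At least 1 of the first 5 motifs stood in 7 of the 8 bound genes, the exception being UQCR-11, and in 58.2% of all bound genes. Of the 25 genes without an L, 19 (76%) held one, against 2 of the 15 with an L (13.3%) and 46.3% of all promoters. A match is a description of the letters and not evidence that the factor binds there.

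Other genes of the pathway were examined with the same call, from a list of 19 symbols of which 18 were found. Of these 18, 7 were bound (38.9%, exact interval 17.3% to 64.3%), against 21.9% of all genes, a share that this interval covers. A divergent partner was annotated for 10 of the 18, and 36.3% of all genes with one were bound. Of the 7 bound genes, 5 shared the summit with another gene and 4 had the nearest TSS. Subunits of the same complexes were among them: blw, the ATP synthase alpha subunit, had a signal of 426, levy, a complex IV subunit, had 317, and cype, another, had 106. The complex II genes SdhA and SdhC had 204 and 178, the assembly factor gene Ttc19 had 407, and Cyt-c-d, a cytochrome c gene known for its role in sperm, had 547 at a summit 388 bp downstream of its TSS. The complex III subunits RFeSP, ox and Cyt-c1 were not bound, nor was sun, the epsilon subunit of the ATP synthase, which had a relaxed pooled signal of 91.8. With blw and ATPsynbeta, both kinds of large subunit of the rotary head had a bound gene.

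Complex I and the mitochondrial ribosome were compared by the same call. Of the 40 complex III, complex IV and ATP synthase genes 8 were bound (20%), against 13 of 40 complex I genes with symbols starting ND- (32.5%) and 35 of 73 mitochondrial ribosomal protein genes (47.9%). Without the duplicates that carry an added L, 8 of 25 were bound (32%), near the share of complex I. The exact intervals were 9.05% to 35.6% for the 40 genes, against 18.6% to 49.1% for complex I and 36.1% to 60.0% for the mitochondrial ribosome. The median signal over bound genes was 280.1, against 220.2 for complex I and 273 for the mitochondrial ribosome. A divergent partner was annotated for 50% of the 40 genes, against 55% of the complex I genes and 79.5% of the ribosomal ones. Among genes with a partner the bound shares were 25%, 36.4% and 56.9% in that order. Among genes without one they were 15%, 27.8% and 13.3%. For the 25 genes without an added L the shares were 29.4% with a partner and 37.5% without one. The bound gene had the nearest TSS for 7 of 8, 11 of 13 and 18 of 35, against 2285 of all 3058 bound genes. No test was made, since the lists were chosen with results of these data known.

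**Figure D4:**
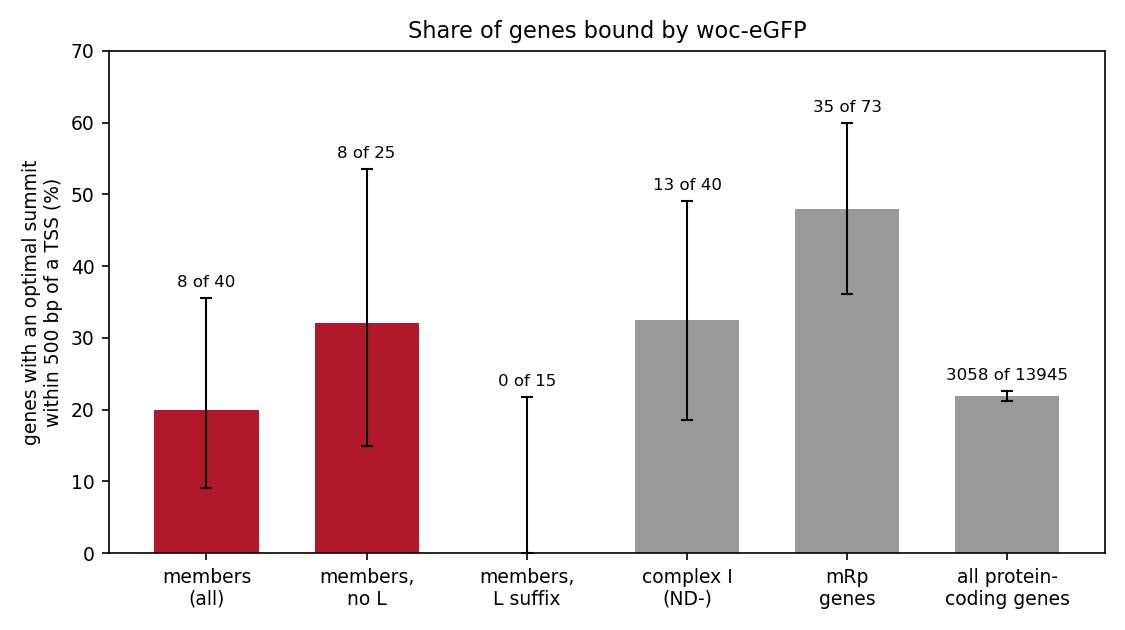
Percent of genes with an optimal summit within 500 bp of a TSS; the red bars are the 40 genes for complex III, complex IV and the ATP synthase and their split by an added L, the grey bars complex I, the mitochondrial ribosome and all protein-coding genes. Whiskers are exact 95% binomial intervals over genes; the bars stand at 20%, 32%, 0%, 32.5%, 47.9% and 21.9%.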

How the data were processed

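The authors deposited peak lists in narrowPeak format. On dm6 these were a relaxed list per library, a relaxed list from the pooled alignments and an optimal list after their threshold on the irreproducible discovery rate, all called against a control alignment per the text deposited with the libraries. The sources used here do not name caller, aligner or versions. The signal and the −log10 q of each peak are the authors' deposited values; the scale of signal is not stated, so it ranks and describes peaks within a list. Lists on dm3 and read totals were not used, and depth is unknown. No control library was analysed here.

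Coordinates are 1-based on dm6. TSSs came from Ensembl release 115 (BDGP 6.54), and sequences from the NCBI copy of the same assembly; every peak ended within its arm. The promoter sequence of 1 duplicate is not reported here. Identity came from global alignment (BLOSUM62) of the longest translated coding sequences in Biopython 1.88, as the share of aligned residue pairs. Python 3.11.15 was used, and the calling code was tested on simulated summits.

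All 40 members are named. Members, lists and motifs were chosen with earlier results of these data known. With 1 group and 2 libraries no test was run. Alternatives were windows of 250 and 1000 bp, the 3318 highest optimal peaks, each library alone, overlap of intervals by 1 bp, the outermost TSS, the nearest TSS, a partner within 500 bp and motif windows from 250 bp upstream.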

Additional observations from a re-analysis of the deposited data

How the results depend on the processing

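The count of bound genes was 8 of 40 and stayed between 7 and 10 under the 8 alternatives, while the share of all genes called ran from 14.2% to 25%. Of 320 single calls 8 changed. The bound genes UQCR-C2, UQCR-11, COX8, COX7B, ATPsynCF6 and ATPsynbeta kept their call under each alternative. COX5A was lost with the nearest TSS only and UQCR-14 with the 3318 highest peaks only. With single libraries the total was 9 (replicate 3) and 10 (replicate 1), complex IV had 3 and 5, the ATP synthase 3 and 2, and complex III 3 and 3. The duplicates with an added L had 0 bound, but 1 of 11, COX7AL2, within 1000 bp, by overlap of intervals, and among single libraries 0 to 1. Genes with a divergent partner had 5 to 6 and those without one 4 bound in single libraries. The cause of these changes was not tested. Depth was not known, so how far it limits the unbound calls cannot be given.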

Other observations

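Some unbound genes lay near a strong optimal summit outside the 500 bp limit. A summit of signal 444 lay 847 bp from a TSS of ATPsynE and within 1000 bp of one of spn-B, a DNA repair gene, so ATPsynE was called at 1000 bp. The adjacent genes COX5B and COX5BL lay 4373 and 2742 bp from one shared summit of signal 581 at Ent2 and Trmt6. UQCR-14L lay 32560 bp from the larp promoter summit, and ATPsynCF6L was the farthest of the 40 genes from any optimal summit, at 127380 bp.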
